A study of Homo sapiens with 18 samples.

Results

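PEA2, a platinum-resistant ovarian cancer cell line, was compared with PEA1, the platinum-sensitive line from the same patient, by ATAC-seq. The comparison was defined by its samples, the 6 PEA libraries of 18 in the series, with 3 libraries per line, and it used the 66103 windows of 1 kb that averaged more than 1 FPKM over these 6 libraries. Both lines are established lines from the ascites of 1 patient with high-grade serous ovarian cancer, PEA1 before platinum chemotherapy and PEA2 after relapse with resistant disease. Both were grown in RPMI-1640 with glutamine and fetal bovine serum, and the labels name no drug treatment of the cells assayed. There is 1 line for each clinical state, so the platinum response and every other difference between the lines cannot be told apart. The labels do not say whether the 3 libraries of a line came from separate cultures, so the p-values measure only the spread between these libraries, which may be technical. Of the other lines, A2780 and its derivative CP70, PEO1 and PEO4 serve here only as levels for orientation, in FPKM as deposited.

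ATAC-seq uses the transposase Tn5, which inserts sequencing adapters where DNA is not covered by nucleosomes, so the reads in a window measure how accessible its chromatin is. Promoters of active genes are open in most cell types, whereas distal elements, among them enhancers, are opened by transcription factors that differ between cell states. Carcinoma cells can move between an epithelial state, held by tight junction and adhesion genes and their regulators, and a mesenchymal state, driven by factors such as SNAI1, ZEB1 and TWIST1, and the AP-1, RUNX, SOX and FOX factors are known for binding distal elements in epithelial tumours.

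The libraries held 17282880 to 32068269 reads, with 12.9% to 16.8% of them in the tabulated windows in PEA1 and 17.1% to 20.7% in PEA2, and a median of 30 to 60 reads per tested window. Each library was therefore centred on its own median, and a difference is given as PEA2 minus PEA1 in log2(FPKM + 0.1). A local difference has, in addition, the median of the surrounding 5 Mb bin removed from each library. Where 1 Mb or 20 Mb bins are named they replace the 5 Mb bins, and any bin under 20 windows took the chromosome median. A window was called when the difference exceeded 2 in size with a Benjamini-Hochberg adjusted p below 0.001 in limma. Every window past that size also passed the p threshold, so the size alone set the counts. Of 14 genes that mark serous carcinoma or epithelium, 12 had a tested promoter window, against 3 of 10 fibroblast, 2 of 12 leukocyte, 1 of 8 endothelial and 6 of 8 mesothelial markers. The summed promoter level of the 2 leukocyte markers was 3.4 to 4.29 FPKM in PEA1 and 5.37 to 6.76 in PEA2, and that of the 3 fibroblast markers was 8.73 to 11.1 and 6.25 to 7.86. The mesothelial sum was 11.6 to 14.9 FPKM in PEA1 and 16.8 to 21.3 in PEA2, and the KDR promoter, the 1 endothelial marker tested, lay between 2.6 and 3.02 FPKM in all 6 libraries. These sums are FPKM as deposited, before centring. The median centred promoter difference was 0.27 for the mesothelial, 0.18 for the leukocyte and -0.56 for the fibroblast markers. The mesothelial markers share MSLN and WT1 with the serous markers. The part of these markers in the results was not tested.

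Accessibility differed in blocks along the chromosomes as well as at single windows. After centring, 4569 windows (6.91% of those tested) were higher in PEA2 and 1797 (2.72%) were lower. The 5 Mb bin of a window accounted for 41% of the variance of the centred difference across windows, and of 551 bins with at least 20 windows, 49 had a median above 1 and 50 a median below -1. With the bins removed, 2048 windows (3.1%) were higher and 912 (1.38%) lower. Of the windows called after centring, 1526 of the higher (33.4%) and 637 of the lower (35.4%) were also called locally.

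**Figure D1:**
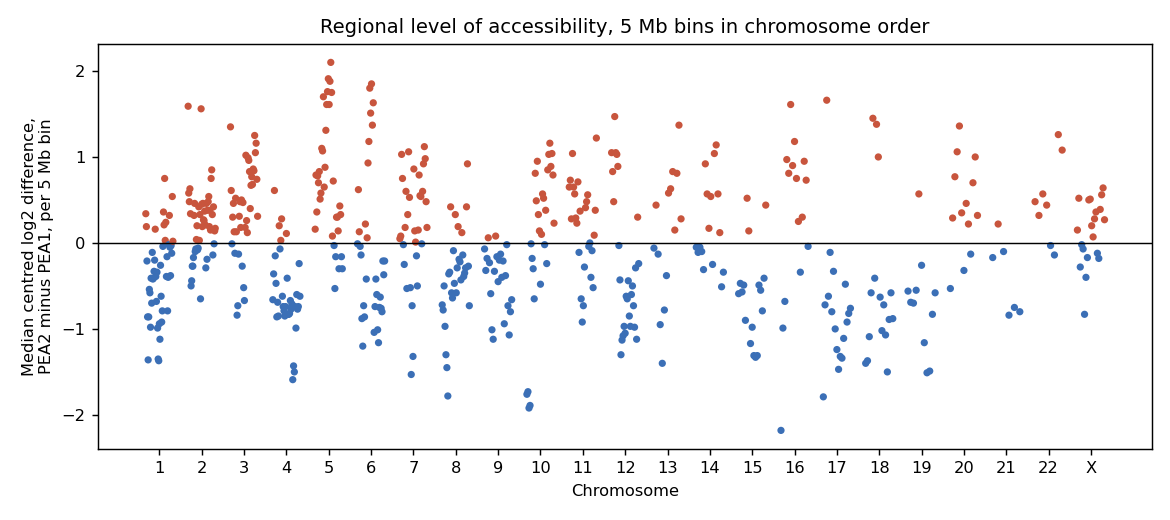
Median centred log2 difference (PEA2 minus PEA1) of each 5 Mb bin with at least 20 tested windows, in order along chromosomes 1 to 22 and X, with bins above 0 in red and below 0 in blue. The highest bins, up to 2.10, lie on chromosome 5, and the lowest, at -2.18, on chromosome 16.

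The bins that moved most lay on chromosome arms 5q, 6q, 10p, 16p and 17p. On chromosome 5 the bin from 110 to 115 Mb had a median of 2.10, with 73 of its 137 windows called higher and 0 called lower after centring. In the same bin the library medians were -1.71, -1.65 and -1.53 in PEA1 and 0.63, 0.52 and 0.49 in PEA2, so the lines did not overlap. The bins from 95 to 100 and 105 to 110 Mb of chromosome 5 had medians of 1.91 and 1.88, and that from 90 to 95 Mb of chromosome 6 had 1.85. The lowest bin was the first 5 Mb of chromosome 16, with a median of -2.18 and 296 of 514 windows called lower, followed by 10 to 15 Mb and 15 to 20 Mb of chromosome 10 (-1.92 and -1.89) and the first 5 Mb of chromosome 17 (-1.79). Promoter windows moved with their bins, with a median of 1.36 over 50 promoter windows in the highest bin and -1.80 over 234 in the lowest. The files hold no DNA copy number, and regional chromatin change and a change in copy number cannot be told apart.

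One locus had almost no reads in PEA2. FAT1, which encodes an atypical cadherin, lies at the end of 4q, where 6 windows between chr4:187596900 and 187649200 had 0 reads in every PEA2 library and at least 10 in every PEA1 library. Over the 9 tabulated windows of that 52.3 kb span, the reads were 411, 455 and 187 in PEA1 and 2, 0 and 0 in PEA2. The next tabulated windows on either side also had 0 reads in every PEA2 library. In PEA1 the one before, at chr4:187543800 near MTNR1A, had 20, 17 and 13 reads, and the one after, at 187650000, had 7, 7 and 1. The rule for a run therefore set the ends of the span, and reads did not return in PEA2 there. No run of this kind was found in the other direction.

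The classes of window differed in their local change, as the plot of local differences by class shows. Distal windows, more than 5 kb from every annotated start, had a median local difference of 0.34, against -0.41 for promoter windows, whose centre lies within 1 kb of a protein-coding start. Among 25689 distal windows 1571 (6.12%) were higher in PEA2 and 580 (2.26%) lower, whereas among 25132 promoter windows 86 (0.342%) were higher and 110 (0.438%) lower. The library medians of the centred level of distal windows were -0.63, -0.58 and -0.54 in PEA1 and 0.03, 0.00 and 0.03 in PEA2, and those of promoter windows were 0.61, 0.61 and 0.55 against 0.00, 0.08 and 0.05. These medians did not overlap between the lines in either class. GC content moved with the change too, since windows of up to 40% GC had a median local difference of 0.59 and those above 60% GC one of -0.35. Within 40 to 50% GC, distal windows still had a median of 0.49 and promoter windows one of -0.34. The part of GC content in single results was not tested beyond a corrected fit. In that fit the calls were 885 higher and 646 lower for distal and 129 higher and 86 lower for promoter windows, so promoter calls were mostly lower without the correction and mostly higher with it. Local values centred within each class gave 721 higher and 872 lower distal windows and 188 higher and 40 lower promoter windows, which turned the split in both classes.

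**Figure D2:**
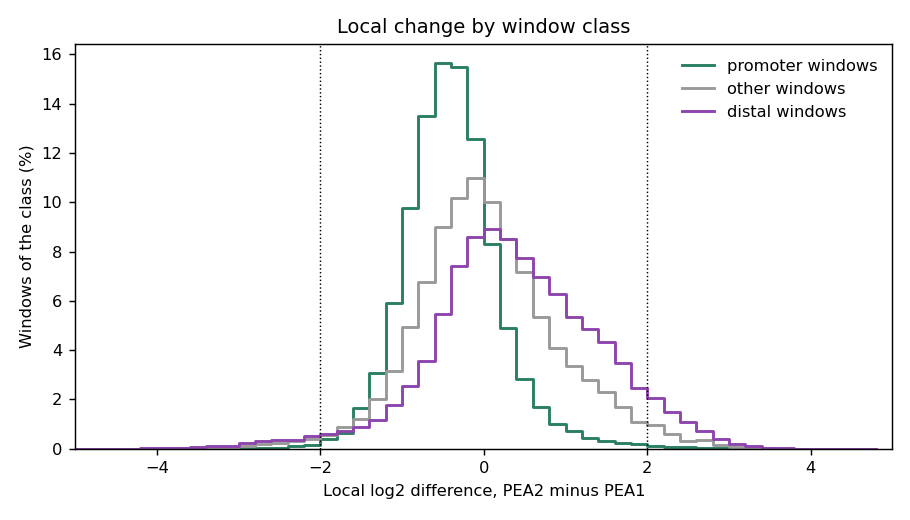
Distribution of the local log2 difference (PEA2 minus PEA1) in promoter, distal and other windows, in steps of 0.2, as a percentage of the windows of each class, with dotted lines at the call threshold of 2 in either direction. Promoter windows centre below 0, with a median of -0.41, and distal windows lie further to the right, with a median of 0.34.

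Distal windows with the largest local change went from near background in one line to several FPKM in the other. The first was chr11:115836300-115837300, an intergenic window 462 kb from the start of CADM1, which encodes an immunoglobulin-type adhesion molecule. It had 0.288, 0.249 and 0.0959 FPKM in PEA1 and 7.53, 4.97 and 6.52 in PEA2, a local difference of 4.39 (SE 0.229, limma adjusted p = 8.38e-13). The local difference fell to 1.77 when 1 Mb bins were removed in place of 5 Mb bins.

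The next window was chr3:55194300-55195300, intergenic and 233 kb from LRTM1, with 0.0961, 0.156 and 0.432 FPKM in PEA1 and 9.23, 5.32 and 7.72 in PEA2 (local difference 4.18, SE 0.3, limma adjusted p = 6.64e-11). PEO4 was between 5.38 and 6.22 FPKM there, PEO1 between 1.22 and 3.01, and A2780 and CP70 stayed at or below 0.586. The third was chr16:5901300-5902300, in an intron of RBFOX1, a splicing regulator, with 0.32, 0.125 and 0.288 FPKM in PEA1 and 2.97, 3.24 and 3.02 in PEA2. Its local difference was 3.93 (SE 0.272), while the centred difference was 2.89, since the bin as a whole was lower in PEA2.

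In the other direction, chr13:107116200-107117200, an intergenic window 71.3 kb from EFNB2, an ephrin ligand of EPH receptors, had 2.6, 2.77 and 1.68 FPKM in PEA1 and 0.165, 0.289 and 0.177 in PEA2, which are 3, 5 and 4 reads. The local difference was -4.72 (SE 0.277, limma adjusted p = 3.88e-12). An intronic window of KLHL14, chr18:30321900-30322900, went from 2.72, 2.59 and 2.3 FPKM in PEA1 to 0.165, 0.289 and 0.266 in PEA2 (local difference -4.66, SE 0.256). An intronic window of LINS1, chr15:101136600-101137600, went from 2.37, 2.49 and 1.68 FPKM to 0.165, 0.0578 and 0.311 (local difference -4.12, SE 0.305). These windows, like the 3 higher ones, were named only among those called both after centring and locally, with no overlap between the lines.

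The letters of known motifs were counted on both strands of each 1001-base window for 14 motifs, none of which holds the letters of another named here. TGACTCA, the AP-1 element bound by FOS and JUN proteins, was present in 806 of the 1571 distal windows higher in PEA2 (51.3%), 142 of the 580 lower (24.5%) and 41.6% of all distal windows tested. Within 40 to 50% GC the shares were 52.3%, 23.1% and 46.7%. TGTGGTT, the RUNX element, was more frequent in the lower windows, with 23.8% of the higher, 36.6% of the lower and 22.3% of all distal windows, and within 40 to 50% GC 22.9%, 40.6% and 24.4%. Windows with more AP-1 matches had higher medians, from 0.38 with 0 matches to 0.58 with 1, 0.67 with 2 and 0.72 with 3 or more, within 40 to 50% GC. Among promoter windows AP-1 letters were found in 35 of the 86 higher (40.7%), 11 of the 110 lower (10.0%) and 10.6% of all tested. These shares are descriptions, and a match is not shown to be a bound site.

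TGTTTAC, the FOX element, was in 18.8% of the higher, 13.3% of the lower and 13.5% of all distal windows, and ACAATGG, the SOX element, in 16.9%, 11.9% and 12.2%. GTTAATNAT, part of the HNF1 element, was in 3.5% of the higher and 6.55% of the lower distal windows, against 3.38% of all. ACATTCC, the TEAD element, was in 19.8%, 19.3% and 17.8%. Shares of GCCNNNGGC, the TFAP2 element, were 21.2%, 31.7% and 30.7%, and within 40 to 50% GC they were 19.5%, 19.1% and 20%.

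**Figure D3:**
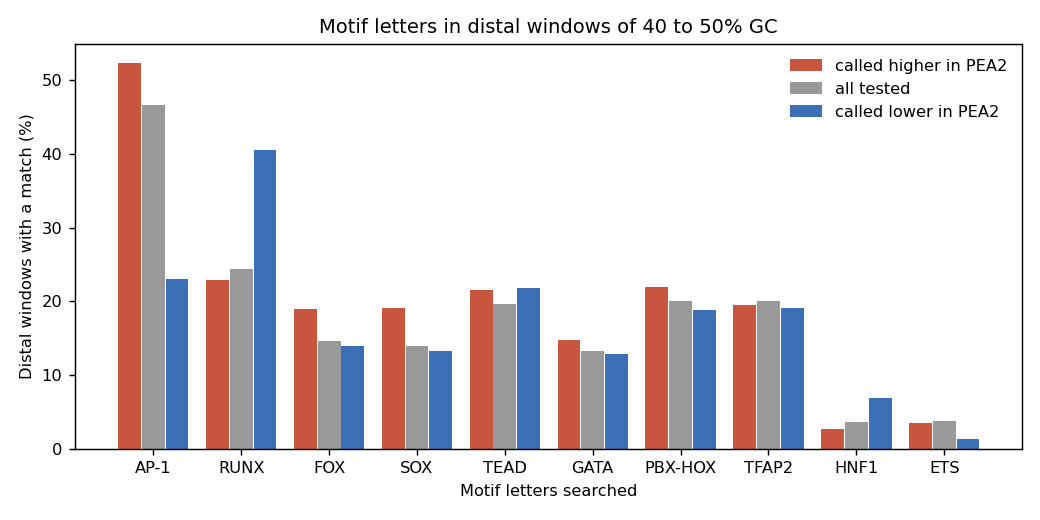
Share of distal windows of 40 to 50% GC that hold the letters of 10 motifs on either strand, among windows called locally higher in PEA2 (953 windows, red), all tested (12603, grey) and called lower (303, blue). AP-1 letters are in 52.3%, 46.7% and 23.1%, and RUNX letters in 22.9%, 24.4% and 40.6%.

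The following stretches of 100 bases show these elements in place. They come from the 3 intronic or intergenic distal windows with the largest local rise that hold AP-1 letters and the 3 with the largest fall that hold RUNX letters, read from the plus strand of GRCh37 with the match in capitals. They are chr3:55194650-55194749 near LRTM1, chr16:5901788-5901887 in RBFOX1, chr12:118987411-118987510 in an intergenic window 173 kb from SUDS3, chr18:30321996-30322095 in KLHL14, chr15:101137093-101137192 in LINS1 and chr5:168588578-168588677 in SLIT3. AP-1 letters read on the minus strand appear as TGAGTCA, and RUNX letters as AACCACA.
LRTM1 window: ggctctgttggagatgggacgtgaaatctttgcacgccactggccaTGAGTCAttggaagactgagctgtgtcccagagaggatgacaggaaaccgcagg
RBFOX1 window: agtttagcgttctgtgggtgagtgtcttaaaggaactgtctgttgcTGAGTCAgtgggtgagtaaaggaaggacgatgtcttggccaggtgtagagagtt
SUDS3 window: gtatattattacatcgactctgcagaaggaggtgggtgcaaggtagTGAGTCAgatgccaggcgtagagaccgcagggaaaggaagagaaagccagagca
KLHL14 window: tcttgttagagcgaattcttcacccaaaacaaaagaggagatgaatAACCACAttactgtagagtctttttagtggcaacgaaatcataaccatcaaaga
LINS1 window: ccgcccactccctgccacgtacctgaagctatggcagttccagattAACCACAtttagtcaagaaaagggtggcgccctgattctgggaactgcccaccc
SLIT3 window: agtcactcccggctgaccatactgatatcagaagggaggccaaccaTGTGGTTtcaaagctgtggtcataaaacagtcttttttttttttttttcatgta

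The SUDS3 window had 0.481, 0.218 and 0.432 FPKM in PEA1 and 10.5, 6.47 and 7.76 in PEA2, and none of the other 4 lines averaged above 0.939 FPKM there. The SLIT3 window, in an intron of the gene for a secreted guidance ligand, had 9.55, 9.25 and 7.48 FPKM in PEA1 and 1.15, 0.462 and 0.754 in PEA2 (local difference -4.06, SE 0.179). PEO1 and PEO4 averaged 20.1 and 21.2 FPKM in the same window.

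Distal windows were then grouped by the nearest protein-coding start within 100 kb. There were 817 locally higher windows near 625 genes and 392 lower windows near 294 genes. Over all distal windows, at any distance, the shares called were 6.12% higher and 2.26% lower. With 3 or more separate runs there were 10 genes for higher windows and 2 for lower windows. The distance assigns a window to a gene but does not show which gene it acts on.

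SYN3, a synapsin gene whose intron holds TIMP3, had 5 of 5 distal windows called higher, between chr22:33361200 and 33393700, with local differences of 2.14 to 3.57. TIMP3, an inhibitor of matrix metalloproteinases, was higher at its own promoter, chr22:33197400-33198400. That promoter had 0.224, 0.374 and 0.432 FPKM in PEA1 and 4.12, 3.99 and 3.42 in PEA2, a local difference of 2.39 (SE 0.246, limma adjusted p = 1.52e-08). Both distal windows of TIMP3 were higher too, by 3.11 and 3.12. The whole stretch moved together, since the 5 other windows within 250 kb of the SYN3 windows had a median centred difference of 2.48.

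FZD10, a Frizzled receptor of the WNT pathway, had 4 of 9 distal windows higher (2.84 to 2.91), 24.5 to 79.0 kb from its start on chromosome 12. Its promoter went from 0.449, 0.903 and 0.671 FPKM in PEA1 to 3.19, 2.37 and 3.77 in PEA2 (local difference 1.63, SE 0.234). The 14 other windows within 250 kb had a median centred difference of 1.66, and with 1 Mb bins removed 0 of the 4 windows passed a difference of 2 and the promoter was at -0.23.

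CHRDL1, a secreted BMP antagonist on chromosome X, had 3 of 3 distal windows higher (2.43 to 2.71), all in its introns, and its promoter was at 2.06. In the GC-corrected fit 1 of the 3 passed a difference of 2. PAPPA, a metalloproteinase that cleaves IGF-binding proteins, had 3 of 3 higher (2.02 to 2.62), of which 1 passed in the GC-corrected fit. CCNE1, which encodes cyclin E1, had 3 of 6 distal windows higher (2.23 to 2.49), 7.8 to 23.1 kb from its start. The first of these had 0.256, 0.374 and 0.479 FPKM in PEA1 against 2.58, 2.89 and 2.71 in PEA2. The CCNE1 promoter itself averaged 6.44 FPKM in PEA1 and 5.29 in PEA2, a local difference of -0.46. None of the 3 windows passed a difference of 2 in the GC-corrected fit or with 1 Mb bins.

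ODAD2, AC092291.2 and SLC15A4 completed the 8 genes with the most higher runs, with 5 of 5, 3 of 7 and 3 of 8 distal windows called. The ODAD2 windows lie in introns of MPP7. None of them passed a difference of 2 in the GC-corrected fit or with 1 Mb bins, and none of the AC092291.2 windows with 1 Mb bins.

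Among lower windows, the nearest start to the largest group, 6 of 15 windows at chr5:172327500-172371700, was that of RPL26L1. However, all 6 lie in introns of ERGIC1, with local differences of -2.92 to -2.04 and centred differences of -2.43 to -1.55. In the GC-corrected fit 4 of the 6 passed a difference of 2, and with 1 Mb bins 5. WDR91 had 3 of 3 (-2.81 to -3.51), TMEM44 3 of 10, POLDIP3 3 of 4 and GNG4 4 of 5 distal windows lower, where 2 of the GNG4 windows lie in an intron of LYST. For PNMA1 the 3 windows lie in an intron of MIDEAS (-3.34 to -3.57), and for CCDC74B the 4 windows lie in an intron of SMPD4 (-2.17 to -2.89). A difference of 2 was passed by 2 of the 3 TMEM44 windows in the GC-corrected fit and 2 of the 3 PNMA1 windows with 1 Mb bins. For CCDC74B 3 of the 4 passed in either setting, and for WDR91, POLDIP3 and GNG4 all passed in both.

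Promoter windows were read gene by gene, each at the tested window whose centre was nearest to the canonical start, within 1 kb. Such a window was found for 13363 genes. Of these genes 43 (0.322%) were locally higher and 52 (0.389%) lower. Called in both the centred and the local fit, with no overlap between the libraries of the lines, were 25 higher and 20 lower, and those with the largest local change, 11 higher and 12 lower, are described here. A window is counted without strand, so it belongs to every gene that starts in it.

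**Figure D4:**
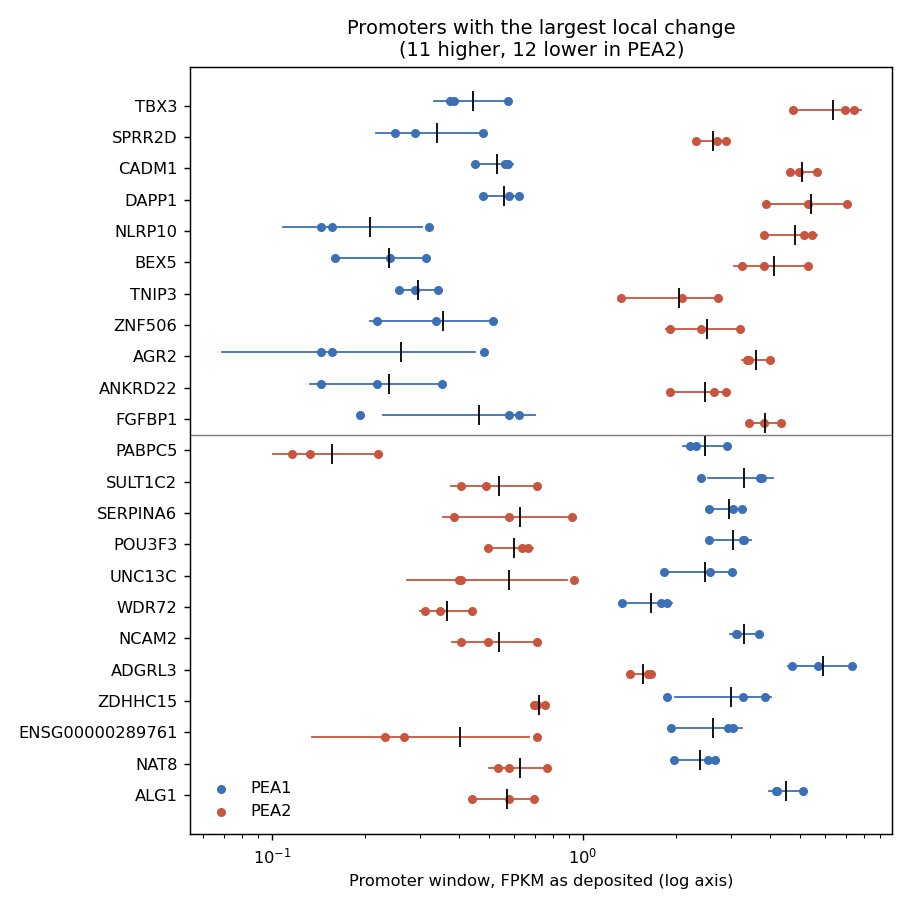
Promoter windows of 11 of the genes with the largest local rise (above the grey line) and the 12 with the largest local fall (below it), in FPKM as deposited on a log axis. Points are the 3 libraries of PEA1 (blue) and PEA2 (red), black ticks are means and horizontal lines 1 SD. No overlap between the lines was a condition for showing a promoter.

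TBX3, a T-box transcription factor, rose most. Its promoter, chr12:115121700-115122700, had 0.384, 0.374 and 0.575 FPKM in PEA1 and 7.42, 4.74 and 6.97 in PEA2, a local difference of 3.27 (SE 0.23, limma adjusted p = 4.86e-11). The PEO lines were also open there, PEO1 at 34.8 to 37.6 FPKM and PEO4 at 6.68 to 8.64. The promoter of CADM1, chr11:115374600-115375600, had 0.449, 0.561 and 0.575 FPKM in PEA1 and 4.95, 4.62 and 5.68 in PEA2, a local difference of 3.03 (SE 0.194). CADM1 is the gene nearest to the distal window with the largest rise, and its promoter difference fell to 0.41 when 1 Mb bins were removed.

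SPRR2D, a protein of the cornified envelope, went from 0.288, 0.249 and 0.479 FPKM in PEA1 to 2.69, 2.31 and 2.88 in PEA2 (local difference 3.04), and its near-identical neighbours make the assignment of reads uncertain. AGR2, a disulphide isomerase of mucus-secreting cells, went from 0.481, 0.156 and 0.144 FPKM to 4.01, 3.41 and 3.37 (2.49, SE 0.287). FGFBP1, a secreted carrier of fibroblast growth factors, went from 0.577, 0.623 and 0.192 FPKM to 4.34, 3.81 and 3.42 (2.43, SE 0.24).

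DAPP1, a phosphoinositide-binding adaptor, went from 0.577, 0.623 and 0.479 FPKM to 7.09, 3.87 and 5.28 (local difference 2.94). NLRP10, of the NOD-like receptor family, averaged 0.207 FPKM in PEA1 and 4.8 in PEA2 (2.86), and was at 1.05 with 1 Mb bins. TNIP3, which binds the NF-kappaB regulator TNFAIP3, averaged 0.296 and 2.04 FPKM (2.57). BEX5, ZNF506 and ANKRD22 had local differences of 2.80, 2.55 and 2.45. TNIP3 and ANKRD22 stayed below 2 in the GC-corrected fit, at 1.69 and 1.57.

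PABPC5, a poly(A)-binding protein gene on chromosome X, fell most. Its promoter, chrX:90689400-90690400, had 2.31, 2.9 and 2.21 FPKM in PEA1 and 0.22, 0.116 and 0.133 in PEA2, a local difference of -3.91 (SE 0.265, limma adjusted p = 2.68e-11). PEO1 and PEO4 averaged 17.7 and 10.8 FPKM there. SULT1C2, a cytosolic sulfotransferase, went from 3.72, 3.77 and 2.4 FPKM to 0.714, 0.405 and 0.488 (local difference -3.12). SERPINA6, the corticosteroid-binding globulin, went from 3.04, 3.24 and 2.54 FPKM to 0.385, 0.925 and 0.577 (-2.88). Neither promoter averaged above 0.812 FPKM in any of the other 4 lines.

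POU3F3, a POU-domain transcription factor, went from 3.27, 3.3 and 2.54 FPKM to 0.495, 0.636 and 0.666 (local difference -2.87, SE 0.217). NCAM2, a neural adhesion molecule, went from 3.11, 3.68 and 3.12 FPKM to 0.495, 0.405 and 0.71 (-2.40), and UNC13C, a synaptic priming factor, from 2.56, 3.02 and 1.82 to 0.934, 0.405 and 0.399 (-2.51). ADGRL3, a latrophilin receptor, was at -2.39, but at -1.07 in the GC-corrected fit. WDR72, ZDHHC15, ENSG00000289761, NAT8 and ALG1 were at -2.44, -2.37, -2.26, -2.20 and -2.12. ALG1, a mannosyltransferase of N-glycan synthesis, lies just beyond the first 5 Mb of chromosome 16, and its centred difference was -3.16. With 1 Mb bins UNC13C, WDR72 and ADGRL3 were at -1.74, -1.67 and -1.75, short of the threshold. A 1 Mb bin under 20 windows takes the chromosome median, so this setting is not always the finer one. With 20 Mb bins UNC13C, WDR72, ADGRL3 and ALG1 were at -1.92, -1.85, -1.70 and -1.56. Centred within class, ZDHHC15, ENSG00000289761, NAT8 and ALG1 were at -1.99, -1.87, -1.81 and -1.73, and ADGRL3 also missed the threshold.

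Gene lists were read at a difference of 1 and an adjusted p of 0.05, since few promoters passed 2. At that level 561 promoter windows (2.23%) were higher and 3040 (12.1%) lower, and of the genes 268 (2.01%) were higher and 1568 (11.7%) lower, with a median of -0.44. The counts below are read against those percentages, and a promoter can be lower relative to its bin while its FPKM is level or higher. In the GC-corrected fit 3.9% of genes were higher and 3.17% lower, and with values centred within class 4.09% and 2.93%.

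**Figure D5:**
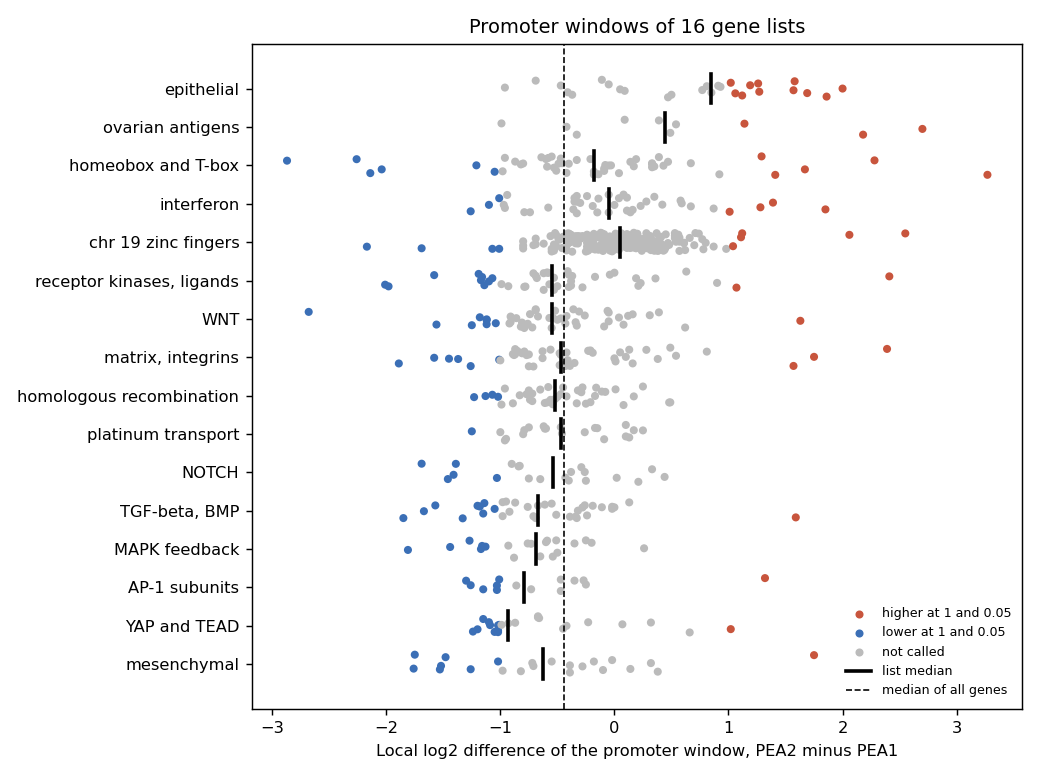
Local log2 difference (PEA2 minus PEA1) of the promoter windows of 16 gene lists, 1 point per gene, red when higher and blue when lower at a difference of 1 and adjusted p of 0.05, with the list median as a bar and the median of all genes, -0.44, as a dashed line. The epithelial list has the highest median, 0.85, and the YAP and TEAD list the lowest, -0.93.

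Epithelial genes were higher in PEA2 more often than the 2.01% of all genes. Of 27 members with a tested promoter 11 (40.7%) rose and 0 fell, with a median of 0.85. PRSS8, a membrane protease of epithelia, went from 0.609, 0.405 and 0.623 FPKM in PEA1 to 6.48, 6.18 and 6.21 in PEA2, a local difference of 2.00 (SE 0.187, limma adjusted p = 3.73e-09). CLDN7, a tight junction claudin, went from 0.577, 0.374 and 0.575 FPKM to 1.7, 1.68 and 1.51 (1.86), and RAB25, an epithelial vesicle GTPase, from 0.673, 0.498 and 0.815 to 1.32, 2.2 and 1.73 (1.58). LAMB3, a laminin chain of the epithelial basement membrane, went from 0.897, 1.18 and 1.01 FPKM to 4.29, 3.06 and 3.68 (1.57).

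CDH1, the epithelial cadherin, went from 1.09, 1.28 and 0.671 FPKM to 2.69, 1.91 and 2.71 at its promoter (1.06, SE 0.225), and 2 of its 4 distal windows were higher, by 2.11 and 2.65. Over the whole epithelial list 4 of 86 distal windows were higher (4.65%, against 6.12% of all distal windows) and 1 was lower, near ST14. The centred fit called 8 of the 27 promoters higher and 2 lower. PKP3, MARVELD3, SPINT1 and CLDN3 rose by 1.27, 1.19, 1.26 and 1.02. The count of higher members was 17 of 27 in the GC-corrected fit, 16 with values centred within class, and 10 to 14 with any 1 library left out. Of 5 keratin promoters tested, those of KRT7 and KRT19 rose (1.53 and 1.23), although their centred differences were 0.51 and 0.35 and the centred fit called 3 keratin promoters lower.

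Mesenchymal genes were lower more often than the 11.7% of all genes. Of 22 tested promoters 7 (31.8%) fell and 1 rose, with a median of -0.63. CDH11, a mesenchymal cadherin, went from 2.18, 2.77 and 2.4 FPKM in PEA1 to 0.824, 0.636 and 0.754 in PEA2 (local difference -1.76, SE 0.232). TWIST1, SNAI1 and ZEB1, which repress epithelial genes, were lower, at -1.75, -1.53 and -1.48. VIM, the mesenchymal intermediate filament, went from 10.5, 11.5 and 8.53 FPKM to 1.7, 1.5 and 1.6 (-1.52 locally and -2.95 centred). SPARC, a secreted matrix protein, rose from 0.641, 0.779 and 0.719 FPKM to 4.67, 2.89 and 4.93 (1.75). The distal windows of the mesenchymal list did not fall, with 4 of 64 higher (6.25%, against 6.12% of all distal windows) and 0 lower (against 2.26%). The count of lower members was 5 of 22 with values centred within class and 1 in the GC-corrected fit, where 3 were higher, so the lower count ended with that correction.

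Genes of the ovarian cancer surface and serum markers gave 3 of 10 higher (30%) and 0 lower. VTCN1, the B7-H4 checkpoint ligand, went from 0.513, 0.53 and 0.719 FPKM to 3.74, 2.72 and 3.02 (local difference 2.70, SE 0.22, limma adjusted p = 4.21e-10), and KLK6, a kallikrein protease, from 0.417, 0.685 and 0.671 to 2.36, 1.97 and 2.09 (2.18). MUC4, a membrane mucin, was at 1.14. For MUC16, the CA125 antigen, no promoter window was tested, and 1 of its 3 distal windows was higher, by 2.07. WFDC2 and MUC1 were at -0.42 and 0.09.

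The list of homeobox and T-box genes moved in both directions, with 5 of 51 higher (9.8%) and 6 lower (11.8%). It also holds ZIC genes, which encode zinc-finger factors, and the counts include them. Besides TBX3, MSX2 rose from 0.577, 0.779 and 0.623 FPKM to 7.03, 6.42 and 6.26 (local difference 2.28, SE 0.181), followed by TBX18 (1.67), ZIC4 (1.41) and LHX8 (1.29). Besides POU3F3, ZIC5, IRX3 and ZIC2 fell by 2.26, 2.14 and 2.04. The GC-corrected fit gave 6 higher and 3 lower, so the split turned. Of the HOX clusters 2 of 21 promoters were lower (9.52%) and 0 higher, whereas the GC-corrected fit and values centred within class both gave 2 higher and 0 lower. Without PEA1 replicate 2 the HOX counts were 0 higher and 1 lower, without PEA1 replicate 3 they were 1 and 2, and without PEA2 replicate 1 they were 1 and 0. The Müllerian and serous lineage list had 1 of 18 higher, ESR1, the estrogen receptor (1.30), and 3 lower, with FOXL2, an ovarian somatic factor, at -2.20, against 3 higher and 1 lower in the GC-corrected fit and 2 of each within class. PAX8, the lineage factor of serous carcinoma, was at -0.27 (2.97, 1.97 and 2.48 FPKM in PEA2 against 3.43, 3.24 and 3.45 in PEA1).

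The SOX genes were not called at their promoters, with 0 of 12 in either direction, while 5 of their 23 distal windows (21.7%, against 6.12% of all distal windows) were higher, 2 of them near SOX13 and 1 each near SOX2 and SOX9. The GATA, FOX, KLF and NFI list had 5 of 30 promoters lower and 0 higher, with 1 of each in the GC-corrected fit, 9 lower with 1 Mb bins and 3 lower without PEA2 replicate 1.

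AP-1 subunit genes gave 6 of 14 lower (42.9%) and 1 higher. FOSB went from 6.12, 6.29 and 3.12 FPKM in PEA1 to 0.605, 1.04 and 1.15 in PEA2 (local difference -1.30, centred -2.70), and FOS from 5.96, 5.79 and 4.89 to 2.91, 3.18 and 2.44 (-1.15). The lower count fell to 1 in the GC-corrected fit and to 0 with values centred within class.

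YAP, TEAD and their targets gave 10 of 23 lower (43.5%) and 1 higher, with a median of -0.93. CCN1, a secreted YAP target, fell by 1.24 and YAP1 by 1.20, although YAP1 was at 0.05 in the GC-corrected fit. ANKRD1, another target, was the gene that rose (1.02). The lower count was 1 in the GC-corrected fit and 0 with values centred within class. Of the 116 distal windows of the list 6 were higher (5.17%, against 6.12% of all distal windows) and 2 lower (1.72%, against 2.26%). Feedback genes of the MAPK pathway gave 6 of 20 lower (30%) and 0 higher, led by DUSP1, a phosphatase of MAP kinases, which fell from 12.6, 13.6 and 11.2 FPKM to 6.65, 7.05 and 5.59 (-1.81). Both corrections left 2 of the 20 lower.

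Of the TGF-beta and BMP genes 9 of 35 fell (25.7%) and 1 rose. ID4 and ID2, inhibitors of helix-loop-helix factors, fell by 1.85 and 1.67, and BMP4, a ligand, rose from 0.449, 0.405 and 0.479 FPKM to 1.7, 1.56 and 1.55 (1.59, but 0.21 with 1 Mb bins). In the GC-corrected fit 2 of the 35 were lower. Of the WNT genes 8 of 47 fell and FZD10 rose, against 3 higher and 2 lower in the GC-corrected fit and 2 of each within class. DKK1, a secreted WNT antagonist, went from 2.02, 1.78 and 1.39 FPKM to 0.714, 0.636 and 0.71 (local difference -2.68, SE 0.215, limma adjusted p = 3.44e-10). CTNNB1, beta-catenin, had 3 of 9 distal windows higher (2.24 to 2.79). NOTCH genes gave 5 of 20 lower and 0 higher, with NUMB, a NOTCH inhibitor, at -1.69, and 1 of 20 was lower in the GC-corrected fit.

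Receptor tyrosine kinases and their ligands gave 2 of 42 higher and 9 lower, and the split turned to 5 higher and 3 lower in the GC-corrected fit and to 4 and 3 within class. EPHA4 rose from 1.09, 0.966 and 0.671 FPKM to 8.24, 6.24 and 6.79 (local difference 2.41, SE 0.163, limma adjusted p = 2.73e-11), and EPHA1 rose by 1.07. EPHA7 was at -2.01, although its centred difference was -0.57 and it was at -0.43 with 1 Mb bins. RET and EPHA3 fell by 1.98 and 1.58. Distal windows of the list were higher in 12 of 131 (9.16%, against 6.12% of all distal windows), including 4 of 4 near TEK and 2 of 4 near KIT, a pair of receptors of endothelial and blood cells. The endothelial marker list, which shares TEK and KDR with this list, had 7 of 22 distal windows higher (31.8%, against 6.12% of all), and the leukocyte list 2 of 7, both near PTPRC. The part of other cell types in these distal windows was not tested.

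Of the repair and transport genes of the platinum response 0 had a promoter called higher. With 2.01% of all genes higher, lists of this size can hold 0 at that share. Of all genes 11.7% were lower. Of 41 homologous recombination and Fanconi genes 0 were higher and 4 (9.76%) lower, which are BARD1, FANCA, FANCL and RMI2 (-1.13, -1.07, -1.02 and -1.23), and of 29 excision repair and translesion genes 0 were higher and 2 lower. The GC-corrected fit called none of these 6 lower, and RMI2 was at 0.01 with 20 Mb bins. Among 21 transporter and copper-handling genes 0 were higher and 1 lower (MVP, the major vault protein, -1.25), and the GC-corrected fit called 1 in each direction. The MVP promoter had 1.38, 1.18 and 1.39 FPKM in PEA1 and 1.76, 2.08 and 2.66 in PEA2, so it was lower only relative to a bin that rose, and with 1 Mb bins it was at -0.22. The lower count of this list was 2 without PEA1 replicate 1 or PEA2 replicate 3, 3 without PEA2 replicate 1 or 2, and 4 without PEA1 replicate 3. SLC31A1, the copper transporter CTR1, had 3.62, 4.14 and 3.21 FPKM in PEA1 and 2.64, 2.02 and 2.17 in PEA2, a local difference of -0.80 that stayed under the size threshold. Of the distal windows of that list 6 of 39 (15.4%, against 6.12% of all) were higher, 2 of them near ABCG2, an efflux pump, by 2.33 and 2.89. Of 30 NRF2 and glutathione genes 0 were higher and 1 lower, and of their 39 distal windows 4 (10.3%, against 6.12% of all) were higher, 2 of them near HMOX1. The GC-corrected fit called 2 of the 30 promoters in each direction. The 6 metallothionein promoters were not called.

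Of 28 G1/S genes 5 fell (17.9%), among them CDKN1C, a CDK inhibitor (-1.65), and 0 rose. The count was 1 in the GC-corrected fit and within class, and 3 without PEA1 replicate 1 or PEA2 replicate 1. Of 33 apoptosis genes 1 rose and 1 fell, and 2 fell without PEA1 replicate 3 and 3 without PEA2 replicate 3. BCL2A1, an anti-apoptotic BCL2 relative, rose from 0.417, 0.561 and 0.192 FPKM to 2.36, 1.91 and 1.38 (local difference 2.06, SE 0.297) and was at 1.24 in the GC-corrected fit. Matrix and integrin genes gave 3 of 49 higher (TIMP3, SPARC and LAMB3) and 6 lower, with COL8A1 at -1.89 and SPP1, osteopontin, at -1.58, and the GC-corrected fit turned this to 5 higher and 3 lower. Of 16 stem-like state genes 1 rose, PROM1 (1.18), and 3 fell, against 1 lower in the GC-corrected fit. SALL1, a zinc-finger developmental factor, went from 4.9, 5.7 and 3.93 FPKM to 1.98, 2.2 and 1.86 (-2.40, SE 0.156).

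Among genes singled out in the publication for these cell lines, 10 had a tested promoter, of which 0 were higher and 2 lower, VEPH1 (-1.28) and EREG (-1.16). The VEPH1 promoter overlapped between the lines before regional removal, at 1.92 to 2.34 FPKM in PEA1 and 1.85 to 2.58 in PEA2. The centred fit called 6 of the 10 lower, with a median of -1.11, values centred within class 0 and the GC-corrected fit 1. Leaving out 1 library gave 1 to 4 lower, 1 without PEA2 replicate 1, 3 without PEA1 or PEA2 replicate 3 and 4 without PEA1 or PEA2 replicate 2. The study chose these genes on the same lines, mostly by RNA, and they include genes up and genes down in the resistant lines. Their pooled count of accessibility is therefore not independent evidence of a direction. THBS1, a matrix glycoprotein, went from 5.57, 4.86 and 3.69 FPKM in PEA1 to 1.92, 2.83 and 1.77 in PEA2, without overlap between the lines. Its local difference, also lower in PEA2, fell just short of the size threshold of 1 used for gene lists.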

How the data were processed

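ATAC-seq libraries of PEA1 and PEA2 (3 each, grouped by the labels) were compared. The authors removed duplicates with Picard, aligned to hg19 with Bowtie2 keeping unique alignments, counted reads in windows with featureCounts and deposited FPKM from the rpkm function of edgeR. Versions are not given in the sources used here, and no Tn5 shift is described. All values were whole multiples of 1 read (100% within 0.01 read), so reads were recovered for alternatives. Columns that could not be mapped to a sample numbered 0.

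Windows are 1001 bp in steps of 900 bp. Those with a mean over 1 FPKM were tested with limma 3.58.1 (empirical Bayes with a trend, R 4.3.3) on log2(FPKM + 0.1), which understates the change of low windows. The study used voom, which needs counts, so it is an alternative here. Libraries were centred on their medians, and for local values on the median of each 5 Mb bin, or of the chromosome for bins under 20 windows. The same limit of 20 windows held for the 1 Mb and 20 Mb bins. Calls needed a log2 difference over 2 and Benjamini-Hochberg adjusted p under 0.001, or 1 and 0.05 for gene lists. Windows were annotated with GENCODE release 44 starts on GRCh37 (Python 3.11.15, pandas 2.3.3, numpy 2.4.6). Promoter windows lie within 1 kb of a protein-coding start and distal windows over 5 kb from every start.

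Named were the 12 promoters and 3 distal windows per direction with the largest local change called in both fits without overlap. Also named were 8 genes per direction with the most called distal runs, up to 4 members per list, and the 4 highest and lowest bins. Further list members were chosen after their values were seen. Windows on chromosomes 8 and Y were counted but not named. Some items that the rule selects are not reported here. The members and the 31 gene lists and 5 marker lists were chosen with earlier results of these data known. Alternatives changed the pseudocount, filter, scaling, bins, GC content, classes, thresholds, libraries, replicate block and weights (voom on recovered reads). The fit was tested on simulated data.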

Additional observations from a re-analysis of the deposited data

How the results depend on the processing

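The counts of calls kept within 1.5 times their value in 71 of 114 cases, and none of the 24 promoters and 6 distal windows chosen for the size of their change reversed. Among other called promoters named, FZD10 went from 1.63 to -0.23 with 1 Mb bins, YAP1 from -1.20 to 0.05 with the GC correction, RMI2 from -1.23 to 0.01 with 20 Mb bins and MVP from -1.25 locally to 0.29 after centring alone. A pseudocount of 0.5 gave 1196 higher and 660 lower windows after centring, 18 and 30 local promoter and 263 and 245 local distal windows, and a pseudocount of 1 gave 284 and 160, 4 and 7, and 38 and 62. Of the 24 named promoters 9 were still called at 0.5 and 1 at 1. Without a filter on the mean the lower counts were 2697, 215 and 981, and over 2 FPKM the counts were 2228 and 415, 55 and 50, and 848 and 119. Values as deposited, with no centring, gave 7436 and 938 windows, voom weights 8557 and 1131, and the GC correction 2624 higher after centring and 885 higher distal windows. Thresholds of 1 and 0.05 gave 14262 and 11875, 561 and 3040, and 6833 and 1895. Centring within class, an alternative chosen after seeing the data, gave 188 and 40 promoter and 721 and 872 distal windows. The planned edgeR count test is not reported, because the deposited values are FPKM and not counts. Without regional removal 165 and 537 promoter windows and 3507 higher distal windows were called. The narrower promoter of the study gave 60 lower, and distal windows over 20 kb from a start 920 and 285. The higher share of calls moved by over 10 points in several of these: for promoters 43.9% became 60% with the GC correction, 82.5% within class and 23.5% without regional removal, and for distal windows 73% became 57.8%, 45.3% and, with quantile normalization, 60.8%. For all windows 71.8% became 58.1% with the GC correction, 58.8% with quantile normalization and 88.8% as deposited. The cause of these shifts was not tested. Leaving out 1 library gave 4334 to 5088 higher and 1658 to 2008 lower windows after centring, 78 to 110 and 103 to 141 promoter windows, and 1439 to 1862 and 544 to 615 distal windows. The replicate block gave the same counts, 4569 and 1797, 86 and 110, and 1571 and 580, since the fold threshold set every call. The labels share only a number across the lines, and libraries with the same number did not deviate together (r = -0.005, -0.12 and -0.006). With a median of 30 to 60 reads per window, depth limits the precision of windows near 1 FPKM.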

Other observations

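Some gene families outside the comparisons above are given here as values, read at a difference of 1 and an adjusted p of 0.05 in limma. Of 79 ribosomal protein promoters 0 were higher and 12 lower in PEA2 (15.2%, against 11.7% of all genes), among them RPL9, which had 2.63, 2.43 and 2.35 FPKM in PEA1 and 0.55, 1.04 and 0.666 in PEA2 (local difference -1.53). The GC-corrected fit called 8 of the 79 lower and values centred within class 3. Of 217 zinc-finger genes of chromosome 19, a family of mostly KRAB repressors, 5 were higher and 4 lower. These are 2.3% and 1.84%, against 2.01% and 11.7% of all genes. The centred fit called 4 of the 217 higher and 56 lower. ZNF135 rose from 0.513, 0.654 and 0.719 FPKM to 2.42, 2.95 and 2.31 (2.06), and ZNF492 was at -2.17. With 1 Mb bins 19 of the 217 were higher and 2 lower.

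Interferon-related genes gave 4 of 41 higher (9.76%) and 3 lower (7.32%), against 2.01% and 11.7% of all genes. The lower count was 5 without PEA2 replicate 2 or 3. Values centred within class gave 6 higher and 0 lower, and the centred fit 4 higher and 8 lower. IRF7, an inducer of type I interferon, rose from 0.16, 0.436 and 0.288 to 1.65, 2.49 and 1.6 (1.39). Antigen presentation genes gave 1 of 27 higher, HLA-DMA (1.57), and 1 lower, B2M, the light chain of class I molecules (-1.54), or 3.7% each. The lower count was 2 without PEA1 replicate 1 or 3 and 3 without PEA2 replicate 1. The centred fit called 0 of the 27 higher and 10 lower. Of 11 clustered protocadherin promoters tested PCDHGA7 rose by 1.88 and PCDHA13 fell by 1.61 (9.09% in each direction). Of the 12 tested serous markers CDH1, KRT7 and KRT19 were locally higher, whereas the centred fit called 0 higher and 3 lower, and MECOM was at -1.30, although its FPKM was 2.69, 2.83 and 2.4 in PEA1 and 2.53, 2.83 and 2.75 in PEA2.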
